A study of Mus musculus with 2 samples.

Results

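The apelin and adrenomedullin systems were followed through 6 genes, chosen by name out of 17139 genes listed for endothelial cells (ECs) of Lewis lung carcinoma (LLC) tumours: the ligands Apln and Adm, the receptors Aplnr and Calcrl, and the receptor partners Ramp2 and Ramp3. LLC is a mouse lung carcinoma cell line, grown here under the skin of C57BL/6 mice, in the methods male C57BL/6 J mice of 8 to 9 weeks. Tumours were injected with PBS, or with 14 µg of 3'3'cGAMP (cGAMP) in 70 µl of PBS, and live CD31+ ECs were sorted 24 h later according to the methods and 6 h later according to 1 supplementary legend. cGAMP is a cyclic dinucleotide that activates STING, an adaptor of cytosolic DNA sensing that drives type I interferon and TNF responses. Each treatment was 1 library from 1 mouse, so the comparison had no replicate and no test of the treatment was possible. The design addressed how ECs of a tumour differ after STING activation.

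Apelin, the peptide made from Apln, signals through the G protein-coupled receptor encoded by Aplnr, and apelin made by the leading tip cells of a sprout is known to act on the stalk cells behind them. Adrenomedullin, the peptide made from Adm, is a vasodilator that stabilises vessels and is needed for lymphatic vessels. Its receptor is the protein of Calcrl joined to that of Ramp2 or Ramp3, single-pass proteins that carry Calcrl to the cell surface and set which peptides it binds. Transcription of both ligands is known to rise in low oxygen.

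The PBS library held 2517 cells with 92081146 UMIs (unique molecular identifiers, each standing for 1 captured RNA molecule) and a median of 29780 UMIs per cell, and the cGAMP library held 1340 cells with 63366746 UMIs and a median of 41178. Levels are a gene's share of the UMIs of the cells concerned, scaled to 1000000 UMIs (CPM). Their 95% intervals, exact Poisson for levels and exact binomial for shares and ratios, cover counting error within a library and nothing between mice. The EC label matched its markers: all 6 pan-EC markers were detected, at a summed 2674 CPM in the PBS and 2334 CPM in the cGAMP library and at 1867 CPM or more in every cluster. The 7 leucocyte markers listed summed to 13.7 and 66.2 CPM, the 7 mural and fibroblast markers to 17.6 and 11.0 CPM, and the 3 epithelial markers to 2.09 and 0.395 CPM. Across clusters the leucocyte sum ran from 8.86 to 23.6 CPM in the PBS and from 24.7 to 293 CPM in the cGAMP library. Both maxima were in the tip-like Ankrd1/Pgf cluster introduced next, where S100a9 reached 171 CPM in the cGAMP cells, while Cd74 led over the libraries with 6.97 and 35.0 CPM. The median mitochondrial share of a cell's UMIs was 4.49% in the PBS and 2.87% in the cGAMP library, and lower in the cGAMP cells of all 8 clusters. The part of leucocyte RNA in the differences below was not tested, and a limit on the mitochondrial share was tried among the alternatives. The libraries shared 1 cell barcode.

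Clustering without the members gave 8 clusters, named by markers where at least 3 were raised. The tip-like ECs were a cluster led by Gal and Chga (393 cells of the PBS and 126 of the cGAMP library) and a smaller one led by Ankrd1 and Pgf (128 and 61 cells), and the stalk-like ECs were the cluster led by Ackr1 and Selp (372 and 361 cells). Interferon-responsive Rsad2 and Ifit2 were among the 10 leading genes of the Gal/Chga cluster, and Csf3 and Ubd among those of the stalk-like cluster. The Ankrd1/Pgf cluster had 1 tip and 1 arterial marker among its 10 leading genes, beside the hypoxia-responsive Bnip3, Egln3 and Slc2a1. Proliferative ECs formed the clusters Hist1h1b/Hist1h2ap (413 and 221 cells) and Cenpf/Ube2c (245 and 72 cells), and arterial ECs the cluster Gja4/Nts (369 and 198 cells). A cluster led by Esm1 and Igfbp3 (551 and 249 cells) had no raised marker, though Esm1 is on the tip list, and stays unnamed. A cluster led by Igfbp5 and Ctsh (46 and 52 cells) had all 15 stalk markers raised, more than the 11 of the stalk-like cluster. None of them was among its 10 leading genes, which held the arterial marker Mgp, so it stays unnamed too.

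All 6 genes are protein coding. On GRCm38 with GENCODE M21 they lie at chrX:48025146-48034853 on the minus strand (Apln), chr2:85136225-85139923 on the plus strand (Aplnr), chr7:110627661-110629820 on the plus strand (Adm), chr2:84330626-84425411 on the minus strand (Calcrl), chr11:101246028-101259546 on the plus strand (Ramp2) and chr11:6658521-6677475 on the plus strand (Ramp3). Ramp2 overlaps Vps25 on its own strand, so counts of Ramp2 are uncertain to the extent that reads there could be given to either gene. Adm and Ramp3 overlap Gm28863 and Gm11978 on the opposite strand.

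The 250 bases before the transcription start of the 2 ligand genes are shown because both ligands were higher in cells with more UMIs of hypoxia-responsive genes, as described further on. They are RefSeq sequences on GRCm38.p6, 5′ to 3′ on the strand of the gene, at chrX:48034854-48035103 (minus) and chr7:110627407-110627656 (plus). Capitals mark matches to ACGTG or GCGTG, the core letters of the hypoxia-response element, on either strand.
Apln: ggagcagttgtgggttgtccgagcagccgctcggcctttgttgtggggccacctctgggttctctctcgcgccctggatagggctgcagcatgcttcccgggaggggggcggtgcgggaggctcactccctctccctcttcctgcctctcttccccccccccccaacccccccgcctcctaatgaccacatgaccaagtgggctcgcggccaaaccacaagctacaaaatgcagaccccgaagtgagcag
Adm: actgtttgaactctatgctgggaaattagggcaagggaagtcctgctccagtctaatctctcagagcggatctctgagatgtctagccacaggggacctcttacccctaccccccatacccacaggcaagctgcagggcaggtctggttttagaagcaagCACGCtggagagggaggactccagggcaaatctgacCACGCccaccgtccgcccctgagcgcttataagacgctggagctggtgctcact
The Adm window held 2 matches, which read CACGC on the strand shown and began 90 and 54 bases before the start. The Apln window held none. At least 1 match was present in 38.6% of 32851 promoter windows of the same length, ACGTG in 16.6% and GCGTG in 28.2%, so a match in such a window is common. Of the other 2 members with a promoter entry, Calcrl had no match and Ramp3 had 2, which began 219 and 65 bases before its start.

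Over all ECs of a library, the ligands and Ramp3 were lower in the cGAMP library and Aplnr and Ramp2 were higher, all by less than 2-fold. Apln stood at 462 CPM (interval 458 to 467) in the PBS and 340 CPM (336 to 345) in the cGAMP library, a log2 ratio of -0.44 (-0.47 to -0.42). Adm stood at 216 CPM (213 to 219) and 177 CPM (174 to 180), a log2 ratio of -0.29 (-0.32 to -0.25). The receptors went otherwise than their ligands. Aplnr stood at 169 CPM (166 to 172) and 188 CPM (185 to 192), a log2 ratio of 0.15 (0.12 to 0.19). Calcrl stood at 76.1 CPM (74.3 to 77.9) and 76.6 CPM (74.5 to 78.8), with a log2 ratio of 0.01 whose interval held 0 (-0.04 to 0.06). The receptor partners moved apart from each other. Ramp2 stood at 587 CPM (582 to 592) and 652 CPM (646 to 658), a log2 ratio of 0.15 (0.13 to 0.17), and Ramp3 at 33.5 CPM (32.4 to 34.7) and 22.9 CPM (21.7 to 24.1), a log2 ratio of -0.55 (-0.64 to -0.46). None of the 6 members passed 2-fold, which 1.82% of 9509 genes of at least 5 CPM did upwards and 1.7% downwards, and the median log2 ratio of those genes was -0.08.

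The libraries differed in their make-up, which the summed levels carry with them. Stalk-like ECs were 14.8% of PBS and 26.9% of cGAMP cells, the Gal/Chga tip-like ECs 15.6% and 9.40%, and the Cenpf/Ube2c proliferative ECs 9.73% and 5.37%. With each cluster held at its average share of UMIs in both libraries, Apln stood at 420 and 387 CPM (log2 ratio -0.12), Adm at 193 and 202 CPM (0.07) and Aplnr at 186 and 175 CPM (-0.09), so that Adm and Aplnr changed sign. Ramp2 and Ramp3 kept theirs under equal proportions, with log2 ratios of 0.12 and -0.43, and Calcrl went to -0.17. How much of a summed difference came from the make-up of the mouse's tumour and how much from the injection cannot be told apart with 1 mouse per treatment.

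Differences in the level also appeared as differences in how many cells held a UMI. After every cell was thinned to 5000 UMIs, which left out 70 PBS and 13 cGAMP cells that were shallower, an Apln UMI was found in 49.8% of PBS cells (interval 47.8 to 51.8%) and 39.9% of cGAMP cells (37.2 to 42.6%). Adm was found in 33.3% (31.4 to 35.2%) and 24.9% (22.6 to 27.4%), and Ramp3 in 10.5% (9.35 to 11.8%) and 7.08% (5.76 to 8.60%). For these 3 genes the intervals of the libraries were apart. Aplnr was found in 42.7% (40.7 to 44.7%) and 46.3% (43.6 to 49.0%), Calcrl in 31.6% (29.8 to 33.5%) and 34.1% (31.5 to 36.7%), and Ramp2 in 91.8% (90.6 to 92.8%) and 93.0% (91.5 to 94.3%), with overlapping intervals for each. Without thinning the shares were 70.9% and 60.7% for Apln, 56.0% and 49.6% for Adm, 29.1% and 21.8% for Ramp3, 72.6% and 75.9% for Aplnr, 79.1% and 87.0% for Calcrl, and 98.9% and 99.4% for Ramp2. Expression was uneven between cells: the tenth of cells with the most UMIs of a gene held 54.6% and 60.0% of the Apln UMIs, 62.5% and 71.7% of Adm and 76.5% and 86.7% of Ramp3, but 26.0% and 24.4% of Ramp2.

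**Figure D1:**
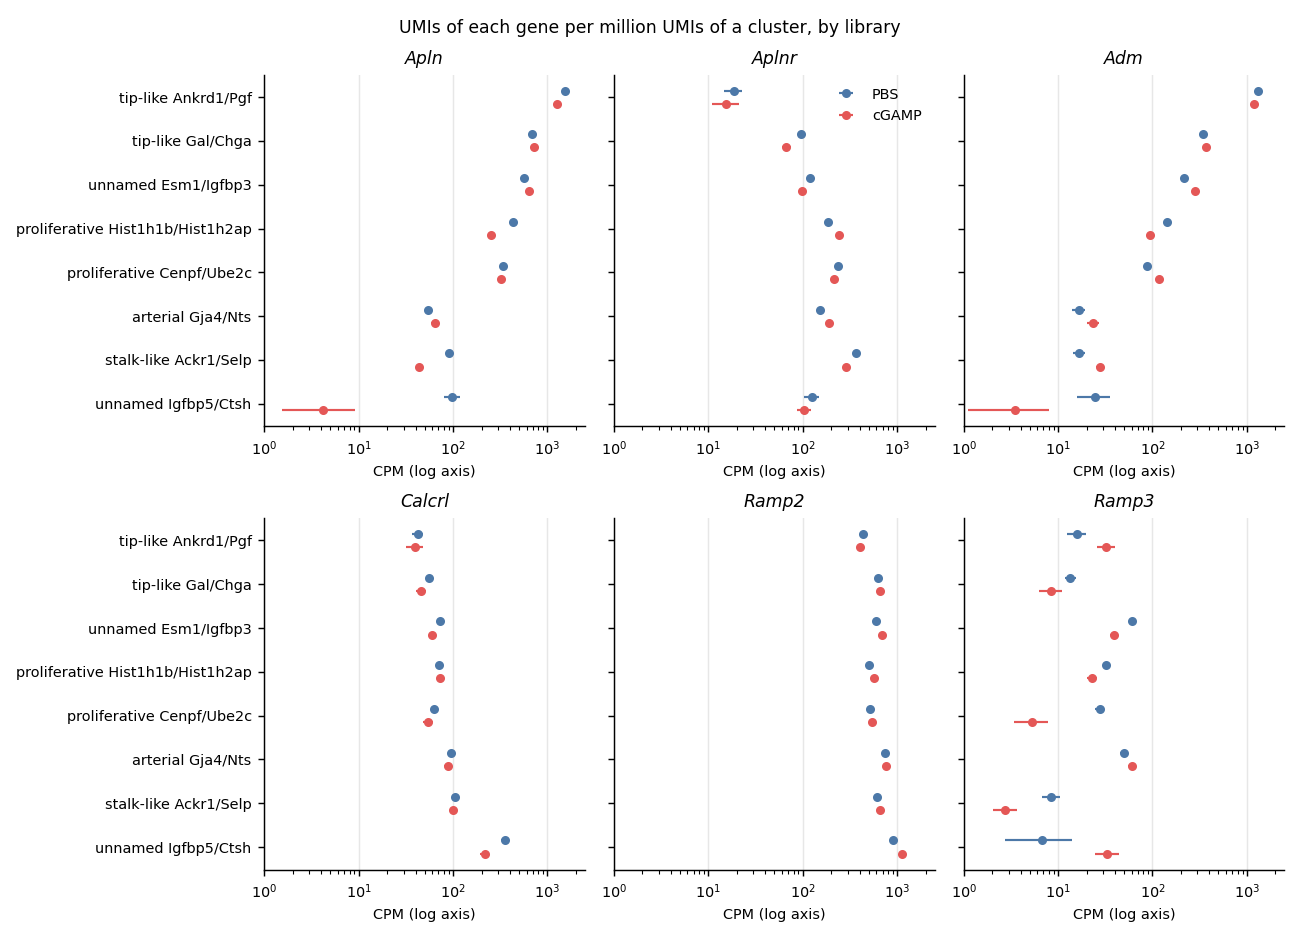
Level of each gene (CPM, log axis) in the 8 EC clusters, with PBS in blue and cGAMP in red; points are the gene's UMIs over all UMIs of the cluster and bars are exact Poisson intervals. Apln and Adm are highest in the tip-like Ankrd1/Pgf cluster, where Aplnr is at 18.5 and 15.5 CPM, while Ramp2 lies between 404 and 1116 CPM throughout.

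Among the clusters, the ligand of the apelin system was highest in tip-like ECs in both libraries. Apln stood at 1520 CPM (1485 to 1556) in the PBS and 1266 CPM (1223 to 1310) in the cGAMP cells of the tip-like Ankrd1/Pgf cluster, and at 679 and 717 CPM in the tip-like Gal/Chga cluster. Next came the unnamed Esm1/Igfbp3 cluster at 557 and 642 CPM, and the proliferative clusters Hist1h1b/Hist1h2ap at 432 and 253 CPM and Cenpf/Ube2c at 338 and 324 CPM. Stalk-like ECs stood at 91.1 and 43.8 CPM, arterial ECs at 54.8 and 64.3 CPM, and the Igfbp5/Ctsh cluster at 97.2 and 4.14 CPM. Neighbours in the order were apart beyond counting error except the Igfbp5/Ctsh and stalk-like clusters of the PBS library. The 2 tip-like and the Esm1/Igfbp3 clusters together carried most Apln UMIs, with 16.8%, 23.8% and 28.8% of the PBS total and 15.2%, 19.4% and 38.9% of the cGAMP total.

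An Apln UMI was found in 96.8% and 93.4% of thinned Ankrd1/Pgf cells and in 70.7% and 71.8% of Gal/Chga cells. The share was 19.7% and 12.5% in stalk-like and 13.6% and 14.9% in arterial cells. In the Igfbp5/Ctsh cluster it was 15.6% of PBS cells, and 0 of 52 cGAMP cells, which allows a share of up to 5.77% when 3 counts are taken as the limit of a count of 0. Free RNA was not measured. If it adds alike to every cluster, its part is at most about the lowest of these shares, 13.6% in the PBS library. In the cGAMP library it is then at most this limit.

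Adm followed the same order at its upper end. Its level was 1303 CPM (1270 to 1336) in the PBS and 1186 CPM (1145 to 1229) in the cGAMP cells of the Ankrd1/Pgf cluster, 346 and 368 CPM in the Gal/Chga cluster, and 215 and 284 CPM in the Esm1/Igfbp3 cluster. Proliferative ECs stood at 144 and 93.3 CPM (Hist1h1b/Hist1h2ap) and 86.9 and 118 CPM (Cenpf/Ube2c). Stalk-like ECs stood at 16.6 and 27.8 CPM, arterial ECs at 16.5 and 23.5 CPM, and Igfbp5/Ctsh ECs at 24.3 and 3.45 CPM. These 3 low clusters were not apart beyond counting error in the PBS library, nor were the stalk-like and arterial clusters in the cGAMP library. The Ankrd1/Pgf cluster, with 5.09% and 4.55% of the cells, held 30.8% and 27.4% of all Adm UMIs. An Adm UMI was found in 94.4% and 88.5% of its thinned cells, against 4.80% and 8.21% of arterial cells.

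The apelin receptor had the stalk-like and tip-like ends of the order reversed. Aplnr was highest in stalk-like ECs, at 365 CPM (354 to 377) in the PBS and 289 CPM (281 to 298) in the cGAMP library. It stood at 236 and 213 CPM in Cenpf/Ube2c and 185 and 242 CPM in Hist1h1b/Hist1h2ap proliferative ECs, and at 151 and 188 CPM in arterial ECs. The Igfbp5/Ctsh cluster had 124 and 103 CPM and the Esm1/Igfbp3 cluster 119 and 97.1 CPM, which were not apart beyond counting error in either library. The tip-like clusters were lowest, with 96.2 CPM (91.2 to 101) and 67.1 CPM (60.6 to 74.1) in Gal/Chga and 18.5 CPM (14.8 to 22.8) and 15.5 CPM (11.04 to 21.04) in Ankrd1/Pgf. In the cGAMP cells of the latter, 1 cell held 67.5% of the 40 Aplnr UMIs. A UMI was found in 69.0% and 63.5% of thinned stalk-like cells, against 5.56% and 3.28% of Ankrd1/Pgf cells, the lowest shares of any cluster. Stalk-like ECs held 24.9% of the Aplnr UMIs of the PBS and 41.3% of those of the cGAMP library.

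The adrenomedullin receptor was spread more evenly, with its peak in the unnamed Igfbp5/Ctsh cluster, which had the most raised stalk markers. Calcrl stood at 354 CPM (319 to 392) in the PBS and 216 CPM (193 to 242) in the cGAMP cells of the Igfbp5/Ctsh cluster. Stalk-like ECs followed with 104 and 98.6 CPM and arterial ECs with 95.5 and 87.4 CPM, not apart beyond counting error in either library. The other clusters lay between 56.1 and 73.1 CPM in the PBS and between 46.1 and 72.6 CPM in the cGAMP library, except Ankrd1/Pgf, which was lowest with 42.04 CPM (36.4 to 48.3) and 39.0 CPM (31.8 to 47.4). Thinned shares of cells with a UMI ran from 16.7% in Ankrd1/Pgf to 68.9% in Igfbp5/Ctsh cells of the PBS library, and from 21.3% to 55.8% in the cGAMP library. Of the lymphatic EC markers, Prox1 stood at 135 CPM in PBS and 16.6 CPM in cGAMP cells of the Igfbp5/Ctsh cluster, against 2.01 and 0.994 CPM over the libraries. Lyve1 (2.92 and 3.45 CPM) and Flt4 (18.5 and 15.2 CPM) were below their library levels there and Ccl21a was at 0, so the markers did not move together.

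Ramp2, the partner that makes Calcrl an adrenomedullin receptor, was near uniform. Its level ran from 432 CPM (413 to 451) in Ankrd1/Pgf to 914 CPM (857 to 974) in Igfbp5/Ctsh cells of the PBS library, and from 404 CPM (380 to 429) to 1116 CPM (1063 to 1172) in the same clusters of the cGAMP library. Arterial ECs came next in both, with 744 and 758 CPM. Thinned shares of cells with a UMI were 78.6% to 96.0% in the PBS and 83.6% to 100% in the cGAMP clusters. The highest cluster was 2.12-fold and 2.76-fold above the lowest, against 27.7-fold and 306-fold for Apln, 79.0-fold and 343-fold for Adm, 19.8-fold and 18.7-fold for Aplnr, 8.42-fold and 5.54-fold for Calcrl, and 8.90-fold and 22.0-fold for Ramp3. The lowest cGAMP levels of the ligands rest on 6 Apln and 5 Adm UMIs.

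Ramp3, the alternative partner, had an order of its own. It was highest in the Esm1/Igfbp3 cluster of the PBS library at 60.6 CPM (57.4 to 64.0), with 38.7 CPM (35.4 to 42.3) in the cGAMP library, and in arterial ECs at 50.1 CPM (45.7 to 54.7) and 60.7 CPM (55.1 to 66.8). Hist1h1b/Hist1h2ap ECs stood at 32.5 and 23.1 CPM and Cenpf/Ube2c ECs at 27.7 and 5.26 CPM. The tip-like clusters had 15.7 and 32.4 CPM (Ankrd1/Pgf) and 13.5 and 8.39 CPM (Gal/Chga), stalk-like ECs 8.48 and 2.76 CPM and Igfbp5/Ctsh ECs 6.81 and 33.2 CPM. Of the low cGAMP levels, 56.0% of the Cenpf/Ube2c, 56.0% of the Ankrd1/Pgf, 61.7% of the stalk-like and 47.9% of the Igfbp5/Ctsh UMIs came from 1 cell each. The order of the 8 clusters was alike in the libraries for Apln, Aplnr, Adm, Calcrl and Ramp2 (Spearman's rho 0.88, 0.98, 0.90, 0.98 and 0.90, n = 8 clusters), and less so for Ramp3 (0.50). A Ramp3 UMI was found in 18.1% and 10.5% of thinned Esm1/Igfbp3 cells and 15.8% and 16.9% of arterial cells, against 3.60% and 1.11% of stalk-like cells.

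Against the other ECs of the same library, with 5 CPM added and the libraries averaged, all members but Ramp2 passed 2-fold in some cluster. In the Ankrd1/Pgf cluster Adm (log2 difference 3.05) and Apln (1.97) were higher and Aplnr (-3.12) lower, where 1.85% of all genes tested passed upwards and 4.04% downwards. In the Gal/Chga cluster Adm was higher (1.02) and Aplnr (-1.20) and Ramp3 (-1.16) were lower, with 1.52% and 3.7% of genes past 2-fold, while Apln stood at 0.96. In stalk-like ECs Aplnr was higher (1.12) and Apln (-2.82), Adm (-3.18) and Ramp3 (-1.91) were lower, with 1.17% and 2.94% of genes past 2-fold. Arterial ECs had Ramp3 higher (1.05) and Apln (-2.78) and Adm (-3.16) lower, with 1.38% and 2.88% of genes past 2-fold. The Igfbp5/Ctsh cluster had Calcrl higher (1.85) and Apln (-3.74) and Adm (-3.69) lower, with 3.9% and 4.81% of genes past 2-fold. Ramp3 was at 1.004 in the Esm1/Igfbp3 cluster, just past 2-fold. It was the only gene of 9509 (0.0105%) to pass upwards there, while 2.19% passed downwards. No member passed 2-fold in either proliferative cluster, where 3.18% and 0.263% (Hist1h1b/Hist1h2ap) and 1.69% and 0.326% (Cenpf/Ube2c) of genes did. The members took no part in forming the clusters, but genes that vary with them did.

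The tip-like clusters pooled and set against the stalk-like cluster gave the same picture for each library. The log2 ratio of tip-like over stalk-like CPM was 3.27 in the PBS and 4.34 in the cGAMP library for Apln and 5.12 and 4.48 for Adm, against -2.24 and -2.50 for Aplnr and -0.98 and -1.17 for Calcrl. Ramp2 was nearly level between them, at -0.07 and -0.17. For Ramp3 the ratio was 0.73 and 2.51, with 47 UMIs in the stalk-like cells of the cGAMP library.

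**Figure D2:**
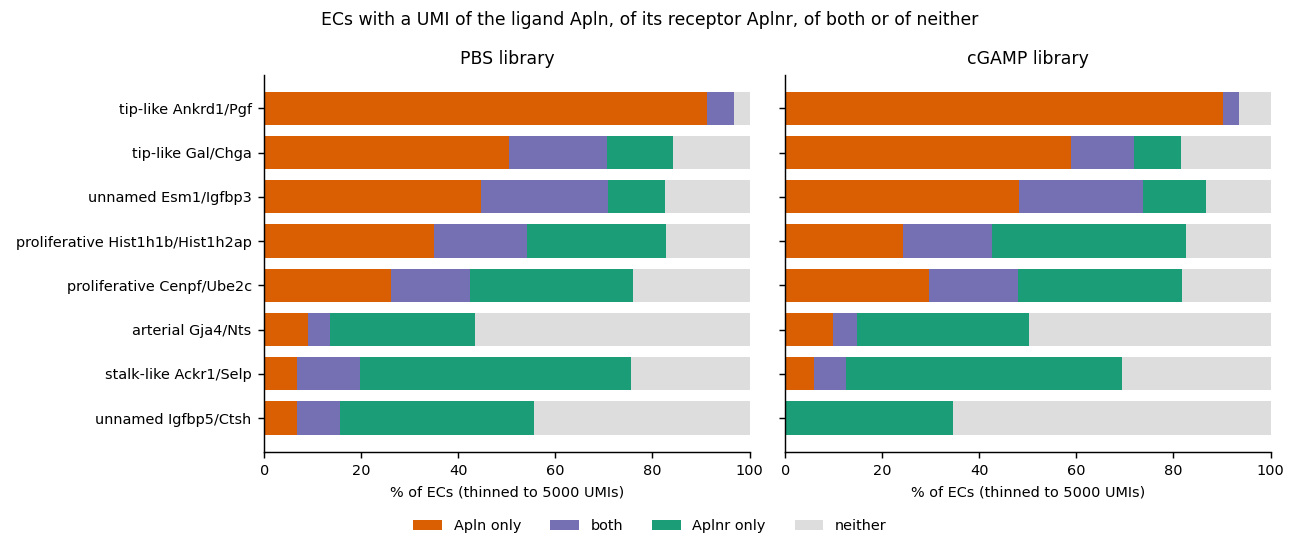
Share of ECs (%) with a UMI of the ligand Apln only, of both genes, of the receptor Aplnr only, or of neither, in each cluster and library after thinning to 5000 UMIs. Apln-only cells make up 91.3% and 90.2% of the Ankrd1/Pgf bars, and Aplnr-only cells 56.0% and 56.8% of the stalk-like bars.

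In thinned cells, UMIs of the apelin ligand and of its receptor were mostly found apart. Without thinning, 70.9% of PBS cells held an Apln UMI and 72.6% an Aplnr UMI, against 60.7% and 75.9% of cGAMP cells. Such shares require more cells with both genes than the thinned shares that follow. The separation is therefore stated for the thinned depth only, and the part of missed UMIs in it was not tested. Of thinned PBS cells, 33.1% held a UMI of Apln alone, 26.0% of Aplnr alone, 16.7% of both and 24.2% of neither, and the cGAMP shares were 27.2%, 33.6%, 12.7% and 26.5%. An Aplnr UMI was present in 33.5% (30.8 to 36.2%) of PBS cells with an Apln UMI and 51.9% (49.0 to 54.7%) of those without, and in 31.8% (27.8 to 35.9%) and 55.9% (52.4 to 59.4%) of cGAMP cells. In the stalk-like cluster the split was close to level: 66.2% (53.99 to 77.0%) of PBS cells with Apln and 69.7% (64.0 to 74.9%) of those without held Aplnr. The PBS shares were also close in Esm1/Igfbp3 (36.8% and 40.8%) and arterial cells (33.3% and 34.6%). Aplnr was found less often with Apln in Gal/Chga cells of the PBS library, at 28.7% (23.5 to 34.5%) against 46.5% (37.1 to 56.1%), and in Hist1h1b/Hist1h2ap cells, at 35.5% (29.1 to 42.2%) against 62.5% (55.1 to 69.5%). The same held for PBS Cenpf/Ube2c cells, at 38.4% (28.8 to 48.7%) against 58.5% (49.7 to 66.9%), and cGAMP Hist1h1b/Hist1h2ap cells, at 43.0% (32.8 to 53.7%) against 69.6% (60.7 to 77.5%). In the Ankrd1/Pgf cluster no cell held Aplnr alone, 0 of 126 PBS and 0 of 61 cGAMP cells, which by the same limit allows up to 2.38% and 4.92%. Only 4 cells of each library lacked an Apln UMI there, so this count of 0 says little about Aplnr. The clusters with most cells positive for both were Esm1/Igfbp3, with 26.1% and 25.5%, and Gal/Chga in the PBS library, with 20.3%.

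The ligands, in contrast, were found together. An Adm UMI was present in 53.0% (50.1 to 55.8%) of thinned PBS cells with an Apln UMI and 13.7% (11.8 to 15.7%) of those without, and in 49.0% (44.6 to 53.3%) and 9.02% (7.13 to 11.2%) of cGAMP cells. Adm was found less often with its own receptor over all PBS cells: a Calcrl UMI was present in 23.8% (20.9 to 26.9%) of PBS cells with Adm and 35.5% (33.1 to 37.8%) of those without, and in 28.4% (23.6 to 33.6%) and 35.9% (33.0 to 39.0%) of cGAMP cells, with overlapping intervals. Within clusters the intervals overlapped too, as in Gal/Chga cells of the PBS library with 24.8% and 22.3%, except in PBS Cenpf/Ube2c cells, with 10.9% (4.11 to 22.3%) and 30.2% (23.5 to 37.5%). Calcrl and Ramp2, which form 1 receptor, showed little association at this depth: Ramp2 was found in 93.1% of PBS cells with Calcrl and 91.2% of those without, and in 93.8% and 92.6% of cGAMP cells. Ramp3 was found in 11.5% and 10.1% of PBS cells with and without Calcrl, and in 7.08% and 7.09% of cGAMP cells. Across cells, Pearson's r of Apln with Adm was 0.55 (n = 2447 PBS cells) and 0.57 (n = 1327 cGAMP cells) and that of Apln with Aplnr -0.26 and -0.29. The cells of a library share its mouse and its droplets.

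Over the 8 clusters in 2 libraries (16 points, which share libraries and cells), Apln and Adm had the most alike profiles of any pair of members, with r = 0.966. Calcrl and Ramp2 followed at 0.844. Apln and Aplnr went opposite ways (-0.556), as did Adm and Calcrl (-0.806). This was not particular to a ligand and its own receptor. Apln had r = -0.818 with Calcrl and -0.786 with Ramp2, and Adm had -0.716 with Aplnr and -0.766 with Ramp2. Ramp3 had r between -0.17 and 0.04 with every other member. Among 6044 genes the profiles most like Apln were those of Adm, Drap1 (0.958) and Adamts7 (0.955), and those most like Adm were Adamts7 (0.978), Pgk1 (0.971), a gene of the hypoxia list used further on, and Drap1 (0.967). Skp1a (0.935), Abcg2 (0.925) and Rapgef6 (0.916) came closest to Aplnr. Calcrl was nearest to Aldh2 (0.981), Disp2 (0.977) and Wwp1 (0.970), Ramp2 to Fis1 (0.954), Rapgef5 (0.952) and Crem (0.944), and Ramp3 to Auh (0.828), Selenof (0.814) and Ncoa4 (0.789).

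**Figure D3:**
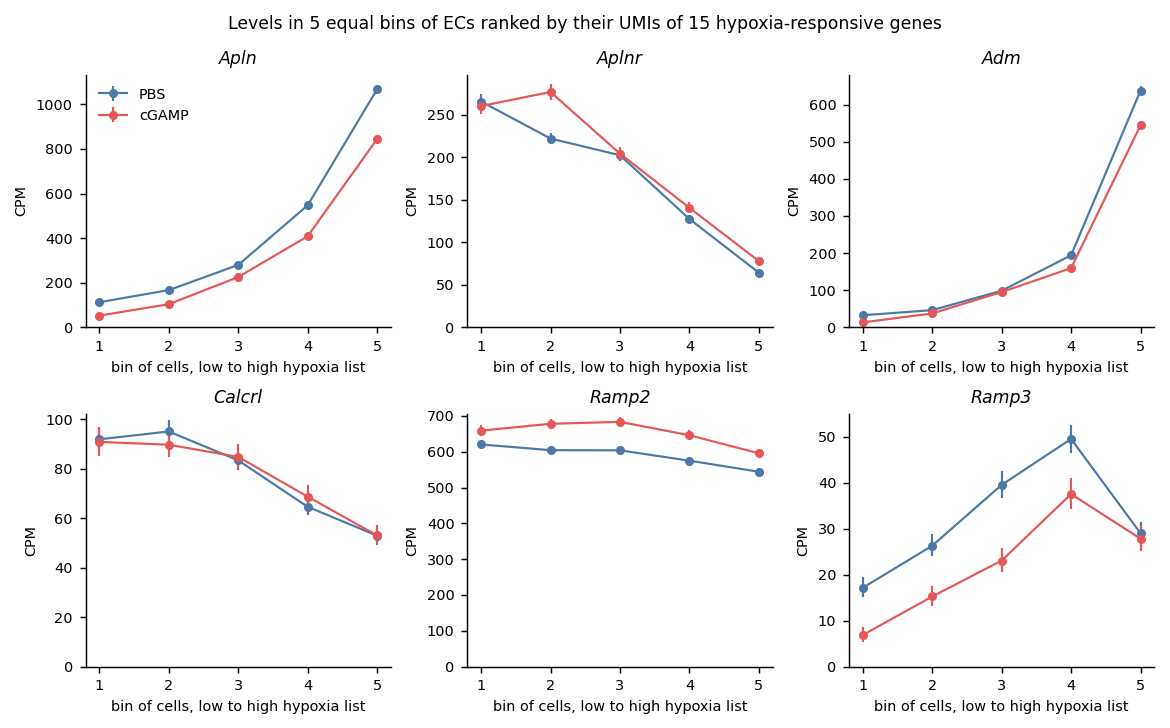
Level of each gene (CPM, axis from 0) in 5 equal bins of ECs ranked by their share of UMIs from the hypoxia list, PBS in blue and cGAMP in red, with exact Poisson intervals as bars. Apln and Adm are higher in each next bin in both libraries, Aplnr is at 64.2 and 77.9 CPM in bin 5, and Ramp3 peaks in bin 4.

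Both ligands were higher in cells with more UMIs from a list of 15 hypoxia-responsive genes, among them the glycolytic enzymes Pgk1, Ldha and Aldoa and the glucose transporter Slc2a1. Cells of each library were ranked by the list's share of their UMIs and cut into 5 equal bins. In the PBS library Apln stood at 112, 167, 280, 547 and 1068 CPM from the lowest to the highest bin, a 9.52-fold span. Adm stood at 32.3, 46.1, 98.4, 194 and 638 CPM, a 19.7-fold span. In the cGAMP library Apln stood at 52.2, 103, 225, 408 and 845 CPM (16.2-fold) and Adm at 13.1, 37.1, 94.9, 159 and 544 CPM (41.6-fold). The order of the bins was the same for both ligands in both libraries.

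The apelin receptor went down along the same list. Aplnr stood at 266, 222, 202, 127 and 64.2 CPM in the PBS and 260, 277, 204, 141 and 77.9 CPM in the cGAMP library, so that the highest bin held 24.2% and 29.9% of the lowest bin's level. Calcrl ended at 57.6% and 58.3% of its lowest-bin level and Ramp2 at 87.7% and 90.4%. Ramp3 went from 17.2 to 49.6 CPM over the first 4 PBS bins and from 6.87 to 37.6 CPM over the first 4 cGAMP bins, then stood at 29.0 and 27.8 CPM in the last. The Ankrd1/Pgf cluster supplied 24.9% and 21.6% of the cells of the highest bins. Without that cluster the spans were 7.81-fold and 12.7-fold for Apln and 12.8-fold and 25.4-fold for Adm, and Aplnr ended at 30.9% and 38.6% of the lowest bin. Median UMIs per cell differed along the bins too, from 23377 in the lowest to 33795 in the highest PBS bin and from 33639 to 42130 in the cGAMP library, and the part of depth in these trends was not tested.

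Another ranking, by 15 interferon-responsive genes such as Isg15, Ifit1 and Irf7, gave opposite trends of Ramp3 in the libraries. In PBS cells Ramp3 stood at 20.8 CPM in the lowest and 61.4 CPM in the highest bin, 2.95-fold more. In cGAMP cells it stood at 25.2 CPM in the lowest, 37.7 CPM in the next and 9.40 CPM in the highest bin, 37.3% of the lowest. Apln stood at 492 and 445 CPM in the lowest and highest PBS bins and at 417 and 290 CPM in those of the cGAMP library. Aplnr went from 206 to 125 CPM in PBS cells and from 193 to 181 CPM in cGAMP cells, with 230 CPM in bin 4 of the latter. Adm, Calcrl and Ramp2 ended between 95.8% and 117% of their lowest-bin level in both libraries. PBS Adm was not flat between the ends, with 269, 170, 200, 193 and 257 CPM. Only PBS Aplnr, downwards, and PBS Ramp2, upwards, moved steadily from bin to bin. Without the Ankrd1/Pgf cluster the cGAMP cells of the highest bin held 51.4% of the lowest bin's Apln level, 62.8% of its Adm level and 38.2% of its Ramp3 level, so that Adm turned from higher to lower there, while PBS Adm turned from lower to higher, at 114%. The list's own level was far apart between libraries, from 447 CPM in the lowest to 4691 CPM in the highest PBS bin and from 1965 to 10062 CPM in the cGAMP bins, so bins of the same number are not matched.

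**Figure D4:**
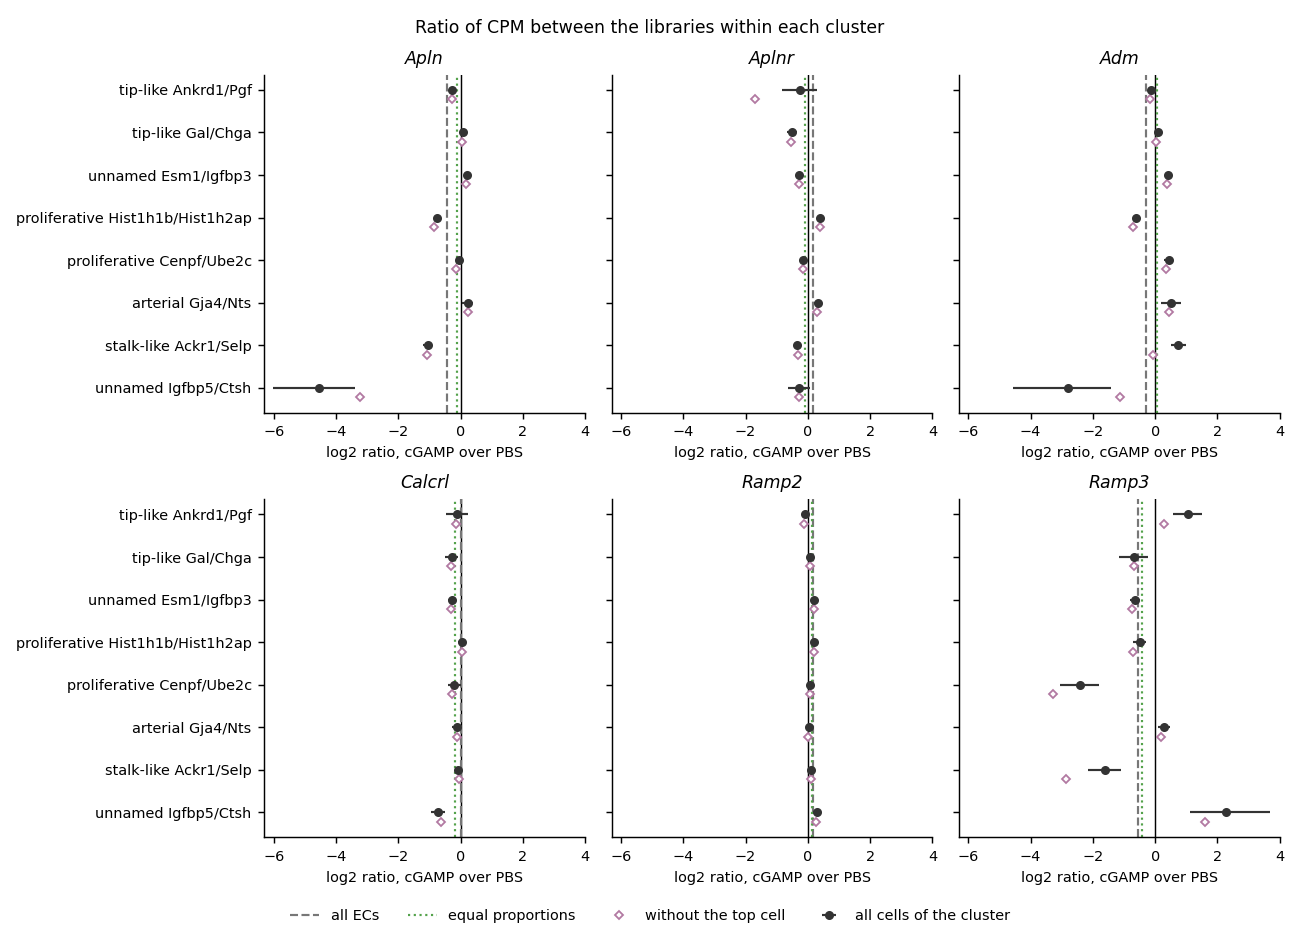
Log2 ratio of CPM, cGAMP over PBS, within each cluster; filled points are all cells of the cluster with counting intervals, open diamonds leave out the 1 cell per library with the most UMIs of the gene, and lines mark all ECs (dashed) and equal cluster proportions (dotted). The filled points of Ramp2 stay between -0.10 and 0.29, while those of Apln, Adm and Ramp3 lie on both sides of 0.

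Within clusters the libraries differed in both directions for 4 of the members. For Apln the ratio was above 0 beyond counting error in 3 clusters, below it in 4 and over 0 in 1. It was lower in cGAMP cells of the stalk-like cluster (log2 ratio -1.06, -1.19 to -0.92) and of the Hist1h1b/Hist1h2ap cluster (-0.77, -0.83 to -0.71), and slightly higher in Esm1/Igfbp3 (0.20, 0.16 to 0.24) and arterial ECs (0.23, 0.05 to 0.41). In the tip-like clusters it was -0.26 (-0.32 to -0.20) in Ankrd1/Pgf, where the leucocyte markers went from 23.6 to 293 CPM, and 0.08 (0.03 to 0.13) in Gal/Chga. Without the top cell of each library the Gal/Chga value was 0.05 (-0.004 to 0.10). The Apln ratio was then above 0 in 2 clusters, below it in 5 and over 0 in 1. The value of -4.55 (-6.03 to -3.38) in the Igfbp5/Ctsh cluster rests on 100 PBS UMIs, of which 68.0% came from 1 cell, and 6 cGAMP UMIs, and was -3.23 without the top cell of each library.

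Adm was higher in the cGAMP cells of 5 clusters and lower in those of 3. The ratio was 0.40 (0.34 to 0.47) in Esm1/Igfbp3, 0.43 (0.28 to 0.59) in Cenpf/Ube2c and 0.51 (0.19 to 0.83) in arterial ECs, and -0.62 (-0.73 to -0.52) in Hist1h1b/Hist1h2ap ECs. In the tip-like clusters it was -0.14 (-0.20 to -0.07) in Ankrd1/Pgf and 0.09 (0.02 to 0.16) in Gal/Chga. Without the top cell of each library the Gal/Chga value was 0.03 (-0.04 to 0.11). The Adm ratio was then above 0 in 3 clusters, below it in 2 and over 0 in 3. The stalk-like value of 0.75 (0.49 to 1.003) turned to -0.07 (-0.36 to 0.23) without the top cell, which held 47.8% of the cGAMP UMIs there, and the share of thinned stalk-like cells with a UMI was 8.59% in the PBS and 4.74% in the cGAMP library. In Igfbp5/Ctsh ECs the ratio was -2.82 (-4.56 to -1.40) from 25 and 5 UMIs, and -1.14 (-3.41 to 0.94) without the top cell.

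Aplnr, higher over all cGAMP cells, was higher within 2 clusters and lower within 4. It was higher in Hist1h1b/Hist1h2ap (0.38, 0.31 to 0.46) and arterial ECs (0.32, 0.21 to 0.42). It was lower in the Gal/Chga (-0.52, -0.68 to -0.36), stalk-like (-0.34, -0.40 to -0.27), Esm1/Igfbp3 (-0.29, -0.39 to -0.19) and Cenpf/Ube2c clusters (-0.15, -0.25 to -0.04). In Ankrd1/Pgf ECs the Aplnr ratio was -0.26 (-0.84 to 0.30). Without the top cell of each library it was -1.71 (-2.68 to -0.86) there, as 1 cell held 67.5% of the 40 cGAMP UMIs. Calcrl was below 0 beyond counting error in 4 clusters and above it in none, from -0.21 in Cenpf/Ube2c to -0.71 (-0.93 to -0.49) in Igfbp5/Ctsh ECs. Ramp2 was above 0 in 6 clusters and below it in none, from 0.07 to 0.29 (0.17 to 0.41). Both of these covered 0 in the remaining clusters. Without the top cell of each library Ramp2 was above 0 in 5 clusters, over 0 in 2 and below it in 1. The last was Ankrd1/Pgf, at -0.12 (-0.24 to -0.01).

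Ramp3 was lower in the cGAMP cells of 5 clusters and higher in those of 3. The ratio was -0.65 (-0.80 to -0.50) in Esm1/Igfbp3 ECs, where 5 cells held 208 of the 507 cGAMP UMIs, and -0.49 (-0.71 to -0.28) in Hist1h1b/Hist1h2ap ECs, where 5 cells held 136 of 270. It was -2.40 (-3.05 to -1.81) in Cenpf/Ube2c ECs from 316 and 25 UMIs and -1.62 (-2.16 to -1.09) in stalk-like ECs. Gal/Chga ECs were at -0.69 (-1.17 to -0.23), and at -0.02 with an interval that held 0 when 25 principal components were used. Arterial ECs were at 0.28 (0.09 to 0.47), and at 0.20 (-0.004 to 0.40) without the top cell. With 25 components the arterial ratio was 0.14 and its interval held 0. The ratio of 1.05 (0.58 to 1.52) in Ankrd1/Pgf ECs was 0.29 (-0.35 to 0.91) without the top cell, and that of 2.28 (1.13 to 3.67) in Igfbp5/Ctsh ECs, from 7 and 48 UMIs, was 1.59 without it and turned to -0.52 without the 5 top cells of each library, which left 2 UMIs in each.

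Some ratios within a cluster reached 2-fold, and they are given with the shares of all genes that did. In stalk-like ECs Apln and Ramp3 were past 2-fold downwards, where 2.6% of genes passed upwards and 4.3% downwards. Ramp3 was past it downwards in Cenpf/Ube2c ECs (1.79% of genes upwards and 2.17% downwards) and upwards in Ankrd1/Pgf ECs (4.29% and 3.2%). Without the top cell of each library the Ankrd1/Pgf ratio of Ramp3 was 0.29 (-0.35 to 0.91), while that of Aplnr passed downwards at -1.71. Apln and Adm passed downwards and Ramp3 upwards in Igfbp5/Ctsh ECs, as did 7.11% and 5.57% of genes. No member passed 2-fold in the other 4 clusters, where 1.74% of genes upwards and 1.9% downwards (Esm1/Igfbp3), 1.72% and 1.67% (Hist1h1b/Hist1h2ap), 2.32% and 3.69% (arterial) and 1.76% and 1.67% (Gal/Chga) did.

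**Figure D5:**
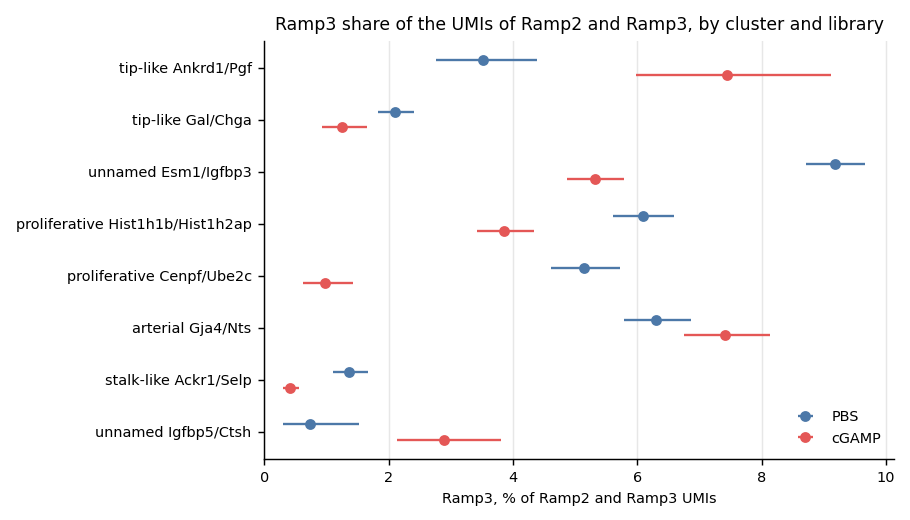
Ramp3 UMIs as a share (%) of Ramp2 and Ramp3 UMIs in each cluster, PBS in blue and cGAMP in red, with exact binomial intervals as bars. The share is highest in Esm1/Igfbp3 ECs of the PBS library (9.18%) and in arterial and Ankrd1/Pgf ECs of the cGAMP library (7.41% and 7.43%).

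The choice between the receptor partners was followed as the share of Ramp3 in the UMIs of Ramp2 and Ramp3, read only between clusters and libraries because UMIs of different genes are not on 1 scale. It was 5.40% (5.22 to 5.59%) over PBS and 3.39% (3.22 to 3.57%) over cGAMP cells. Esm1/Igfbp3 ECs had 9.18% (8.72 to 9.66%) and 5.31% (4.87 to 5.78%), and stalk-like ECs 1.36% (1.10 to 1.67%) and 0.418% (0.307 to 0.556%). Arterial ECs had 6.30% (5.78 to 6.87%) and 7.41% (6.75 to 8.13%), with overlapping intervals. The Ankrd1/Pgf share of 3.51% and 7.43% includes the 1 cell that held 56.0% of the cGAMP Ramp3 UMIs of that cluster.

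The wider pathway was covered by a list of 18 other ligands, receptors, processing enzymes and signalling partners, of which 14 were in the tables and 8 reached 5 CPM. None of the 8 passed 2-fold between libraries, 2 were higher and 5 lower beyond counting error, and their median log2 ratio was -0.11. The receptor Gpr182, a scavenging receptor of ECs, had the largest ratio, with 12.4 CPM in the PBS and 19.9 CPM in the cGAMP library (log2 ratio 0.68, 0.56 to 0.80). Ackr3, which takes up adrenomedullin and chemokines, stood at 60.3 and 64.2 CPM (0.09). Lower in the cGAMP library were Furin, a protease that cleaves peptide precursors (55.3 and 47.0 CPM, -0.23), Pam, which amidates adrenomedullin (38.7 and 36.6 CPM, -0.08), Gnas, the stimulatory G protein subunit below Calcrl (1251 and 1059 CPM, -0.24), and the receptor-silencing Arrb1 (69.1 and 60.7 CPM, -0.19) and Grk2 (45.0 and 40.9 CPM, -0.14). Crcp, a component of the Calcrl receptor complex, stood at 32.4 and 32.9 CPM (0.02). Of the others in the tables, Adm2, Calcb, Ramp1, Mme and Arrb2 stayed under 5 CPM over all ECs of both libraries. The ligands Adm2 and Calcb and the partner Ramp1 were thus at the edge of detection over all ECs. Adm2, with 35 PBS and 19 cGAMP UMIs, was highest in the tip-like Ankrd1/Pgf cluster, at 5.31 and 6.57 CPM.

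These partners had their peaks in different clusters. Ackr3 was highest in the tip-like Gal/Chga cluster, with 150 and 204 CPM. Gpr182 and Pam were highest in the Igfbp5/Ctsh cluster where Calcrl and Ramp2 also peaked, with 83.6 and 94.0 CPM for Gpr182 and 115 and 130 CPM for Pam. Furin was highest in arterial ECs, with 85.8 and 81.9 CPM.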

How the data were processed

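Single-cell RNA of sorted ECs from 2 LLC tumours was measured with the 10x Chromium 3' assay, kit version 2 per the labels and 3 per the methods. The authors aligned reads to mm10 with Cell Ranger 3.0.0, dropped cells under 500 genes or over 10% mitochondrial UMIs, genes in under 3 cells and clusters without Pecam1, and used Seurat 3.1.1. The deposited values are the natural log of 1 plus UMIs per 10000 UMIs of the cell. Undoing the log and the scaling gave back UMIs, with each of the 13483883 PBS and 7904326 cGAMP entries above 0 no more than 0.01 from an integer. Every level, share and ratio was computed from these UMIs.

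The groups came from the treatment labels, 1 library each, so no test across mice was made and a gene was counted as past a threshold at 2-fold with at least 5 CPM in either library. Cells were clustered with Seurat 5.3.0 (R 4.3.3) after the study's methods: 2500 variable genes, integration of the libraries, 30 principal components and a Louvain resolution of 0.5. The 706 variable genes that differed at least 2-fold between the libraries and 4 variable members were left out, which kept 1790. A marker was raised at 2-fold over the other ECs of the library, with 5 CPM added. A cluster took the class with most raised markers, at least 3, unless its 10 leading genes held more markers of another class. No doublets were removed. Cells under 5000 UMIs (70 PBS, 13 cGAMP) were left out of thinned shares. Intervals are 95% and cover counting error only.

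All 6 members are named, and besides them the 3 genes with the most alike profile for each and the partners of the pathway list, of which 1 is not reported here. The members, marker lists and pathway list were chosen with earlier results of these data known. The alternatives concerned the clustering (resolution, variable genes, integration, number of components, marker ranks), the scaling, thinning, a 5% mitochondrial limit and leaving out cells with the most UMIs. Calculations used Python 3.11.15, numpy 2.4.6, scipy 1.17.1 and pandas 2.3.3. Only the ratio of summed CPM between libraries was tested on simulated counts, which held no single cells or clusters.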

Additional observations from a re-analysis of the deposited data

Results flagged for a closer look

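For 4 members the cGAMP over PBS ratio lay on opposite sides of 0 in 2 clusters by more than the counting intervals, and the difference between the clusters was not tested. The log2 ratio of Apln was 0.23 in arterial and -4.55 in Igfbp5/Ctsh ECs. That of Aplnr was 0.38 in proliferative Hist1h1b/Hist1h2ap and -0.52 in tip-like Gal/Chga ECs. That of Adm was 0.75 in stalk-like and -2.82 in Igfbp5/Ctsh ECs, and without the top cell of each library these were -0.07 and -1.14, both with intervals that held 0. That of Ramp3 was 2.28 in Igfbp5/Ctsh and -2.40 in proliferative Cenpf/Ube2c ECs, and the former was -0.52 without the 5 top cells of each library. The Igfbp5/Ctsh values rest on 46 PBS and 52 cGAMP cells.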

How the results depend on the processing

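No paired analysis was possible because each group has 1 library. Of the cGAMP over PBS log2 ratios over all ECs, equal cluster proportions moved Apln to -0.12, Ramp2 to 0.12 and Ramp3 to -0.43 and turned Aplnr to -0.090, Adm to 0.066 and Calcrl to -0.17, because the clusters then weigh the same in both libraries. The mean of per-cell CPM gave -0.36 for Apln, 0.11 for Aplnr, -0.038 for Calcrl, 0.12 for Ramp2 and -0.29 for Ramp3. Median-of-ratios scaling gave -0.35 for Apln, 0.24 for Aplnr, -0.20 for Adm, 0.10 for Calcrl and 0.24 for Ramp2. Cells under 5% mitochondrial UMIs gave -0.52 for Apln, 0.22 for Aplnr, -0.47 for Adm and 0.18 for Ramp2. Thinning gave -0.37 for Apln, -0.34 for Adm and -0.26 for Ramp3. Without the 1% of cells with the most UMIs of the gene Apln stood at -0.49, Aplnr at 0.20, Adm at -0.35 and Ramp3 at -0.79. The tip-like over stalk-like log2 ratio, averaged over libraries, kept its sign for every member under each alternative. At resolution 0.3 it was 3.21 for Apln, -1.88 for Aplnr, 4.11 for Adm, -0.87 for Calcrl and -0.040 for Ramp2, and at 1.2 it was 2.12 for Ramp3. With all 2500 variable genes it was 2.70 for Apln, -1.93 for Aplnr, 2.84 for Adm, -0.94 for Calcrl and 1.08 for Ramp3. Without integration it was 4.21 for Apln, 5.09 for Adm, -1.37 for Calcrl and -0.21 for Ramp2. With markers ranked it was 3.18 for Apln, -1.73 for Aplnr, 4.39 for Adm, -0.21 for Ramp2 and 0.068 for Ramp3. Their causes were not tested. The following were chosen after seeing the data. Without the top cell of each library the within-cluster ratio stayed on the same side of its interval in 6 clusters of 8 for Apln, 7 for Aplnr, 5 for Adm, 8 for Calcrl, 6 for Ramp2 and 6 for Ramp3, and Adm in stalk-like ECs turned to -0.068. Without the 5 top cells Ramp3 in Igfbp5/Ctsh ECs turned to -0.52, with 2 UMIs left in each library. With 25 components the counts were 8, 8, 8, 7, 7 and 6, and no ratio went from one side of 0 to the other beyond its interval. Without the Ankrd1/Pgf cluster the log2 ratio of the highest over the lowest interferon bin turned to 0.19 for Adm in PBS cells and, in cGAMP cells, to -0.67 for Adm, 0.048 for Aplnr and 0.051 for Calcrl. Counting error is wide in clusters with few UMIs of a gene, such as the 46 PBS and 52 cGAMP cells of Igfbp5/Ctsh, and with 1 mouse per treatment no difference between libraries can be set apart from one between mice.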
